A study of Mus musculus with 9 samples.

Results

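Horizontal basal cells are the reserve stem cells of the main olfactory epithelium (MOE), and 5 genes by which they are usually recognized, Krt5, Krt14, Trp63, Icam1 and Cxcl14, were followed here through whole MOE RNA-seq of mice carrying a deletion of TAAR enhancer 1. The genes were taken by symbol, and all 5 were found among the 24421 genes of the count table and among the 20213 genes tested. The study deleted TAAR enhancer 1, a regulatory element of the trace amine-associated receptor (Taar) cluster, to ask which olfactory receptor genes depend on it. Total RNA of the whole MOE was profiled by polyA-selected RNA-seq in 9 mice: 3 wild type, 3 heterozygous (TAAR enhancer 1 +/-) and 3 homozygous (TAAR enhancer 1 -/-). According to the labels the mice were C57BL/6 at postnatal day 14. The reporting summary of the study describes older mice of a mixed background for TAAR enhancer 1 knockouts, and which applies to these libraries was not settled. The deletion was made in the germline by CRISPR-Cas9 and all carriers descend from 1 established line, so it is present in every cell, and effects of the line itself cannot be told apart from those of the enhancer. The libraries held between 24583906 and 32631951 reads in genes.

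Horizontal basal cells lie flat on the basal lamina, anchored to it by hemidesmosomes, and form after birth as a layer beneath the globose basal cells, which supply new olfactory neurons in the undisturbed tissue. They are mostly quiescent. When the epithelium is injured they lose the transcription factor p63, divide, and can give rise to globose basal cells, sustentacular cells and neurons. Krt5 and Krt14 encode the type II and type I keratins that pair to form the filaments of basal epithelial cells, Trp63 encodes p63, which holds these cells in reserve, Icam1 encodes an adhesion molecule that binds leukocyte integrins, and Cxcl14 encodes a chemokine. None of the 5 genes is exclusive to horizontal basal cells. Keratinised squamous epithelium, basal cells of the respiratory epithelium and myoepithelial cells of glands also use some of them, and ICAM-1 is made by endothelium and leukocytes.

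On GRCm38, annotated by GENCODE M21, Krt5 lies at chr15:101707070-101712898 on the minus strand, Krt14 at chr11:100203162-100207548 (minus), Trp63 at chr16:25683763-25892102 (plus), Icam1 at chr9:21015985-21028817 (plus) and Cxcl14 at chr13:56288643-56296551 (minus). None shares its chromosome with the Taar cluster, which is on chromosome 10. Trp63 has 8 coding transcripts in this annotation. Of these, 4 begin at or within 2 bases of the 5′ end of the gene and 4 begin at position 25801916, inside the gene. The count of Trp63 sums all of them, so the long forms with a transactivation domain and the short forms typical of basal cells were not separated. Exons of an opposite-strand gene, Gm44323, cover 5.87% of the exonic bases of Krt5, and Gm47079 covers 11.7% of those of Icam1, while Krt14, Trp63 and Cxcl14 share no exonic base with another gene. Krt5 and Krt14 have close relatives among the keratins, and reads that mapped to more than 1 place were not counted.

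The bases just before the coding transcripts of 3 of these genes are shown because these genes marked the ends of the range found here: Krt5 had the highest level per length, Icam1 varied most between mice of a genotype, and Cxcl14 had the fewest reads. Sequences are from the RefSeq promoter table of GRCm38.p6, written 5′ to 3′ on the strand of the gene and ended at the base before the GENCODE start, and they are chr15:101712899-101713155 (minus, 257 bases), chr9:21015690-21015984 (plus, 295 bases) and chr13:56296552-56296801 (minus, 250 bases). Capitals mark the motifs searched for.
Krt5: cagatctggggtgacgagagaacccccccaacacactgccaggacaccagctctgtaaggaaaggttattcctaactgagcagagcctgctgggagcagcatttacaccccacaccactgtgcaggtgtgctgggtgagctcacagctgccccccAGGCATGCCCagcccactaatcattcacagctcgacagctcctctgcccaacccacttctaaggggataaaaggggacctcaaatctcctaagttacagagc
Icam1: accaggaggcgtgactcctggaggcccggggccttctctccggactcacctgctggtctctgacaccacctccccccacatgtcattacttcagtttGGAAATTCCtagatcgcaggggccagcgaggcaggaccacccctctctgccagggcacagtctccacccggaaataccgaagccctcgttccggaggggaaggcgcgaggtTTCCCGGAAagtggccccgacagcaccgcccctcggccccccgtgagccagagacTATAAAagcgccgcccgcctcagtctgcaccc
Cxcl14: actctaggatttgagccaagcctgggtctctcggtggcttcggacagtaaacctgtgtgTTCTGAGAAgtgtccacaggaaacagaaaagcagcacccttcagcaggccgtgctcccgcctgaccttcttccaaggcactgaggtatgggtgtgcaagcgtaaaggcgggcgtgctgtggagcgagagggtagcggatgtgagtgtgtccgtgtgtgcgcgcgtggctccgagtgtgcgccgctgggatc

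The motifs were chosen with the genes known, and both strands were searched. They were GGAANTTCC, a form of the kappa-B element, TTCNNNGAA, the palindrome of STAT factors, TATAAA, and the p53 family decamer, the unit recognized by p53 and its relative p63. The Icam1 stretch held GGAAATTCC from 198 to 190 bases before the start, TTCCCGGAA from 87 to 79 and TATAAA from 32 to 27 bases before it. The Krt5 stretch held 1 p53 family decamer, AGGCATGCCC, from 102 to 93 bases before the start, and no match to the other motifs. The Cxcl14 stretch held TTCTGAGAA from 191 to 183 bases before the start. None of the matches overlapped another. Among all 32851 promoter windows of the table, each of 300 bases, 0.928% held the kappa-B form, 8.30% the STAT palindrome, 13.6% TATAAA and 8.36% the decamer. These matches describe letters only, and no binding was measured. The table starts its Krt14 window 1518 bases downstream of the start of the coding transcript, so it is not shown, and Trp63 has no entry.

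The Taar genes followed the genotype labels. Summed over Taar2, Taar3, Taar4 and Taar5, receptor genes of the cluster, expression was 9.11 to 10.3 CPM (the reads of a gene relative to the total of the library, scaled by TMM) in wild type, 5.34 to 6.54 in heterozygous and 0.0387 to 0.106 CPM in homozygous libraries. In 3 libraries, heterozygous mouse 1 and homozygous mice 2 and 3, vomeronasal receptor genes summed to 67.5, 120.04 and 69.7 CPM. In the other 6 they summed to 14.6 to 17.4 CPM. Some results are therefore also given without the 3 libraries. Because whole tissue was used, fewer basal cells and less RNA per basal cell cannot be told apart. The labels number the mice within a genotype, and p-values measure the spread between these mice.

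No horizontal basal cell gene passed the test between genotypes. By the quasi-likelihood test of edgeR, with adjusted p under 0.05 taken as a call, the comparison of homozygous with wild type mice called 0 of the 5 genes and 0.0495% of the 20213 genes tested. That of heterozygous with wild type mice called 0 of 5 and 0.00495%, and that of homozygous with heterozygous mice called 0 of 5 and 0.114%. DESeq2 also called 0 of 5 in each comparison. At an unadjusted p under 0.05 there was 1 of 5 in homozygous against wild type (9.26% of all genes), 1 of 5 in heterozygous against wild type (3.25%) and 0 of 5 in homozygous against heterozygous (10.4%). The 1 gene was Krt14 both times. Leaving out the 3 libraries with many vomeronasal reads gave 0 of 5 in heterozygous against wild type mice. It left 1 homozygous mouse, so calls in the comparisons with homozygous mice are not counted. All the comparisons draw on the same 9 mice, and the comparisons with wild type share their controls.

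**Figure D1:**
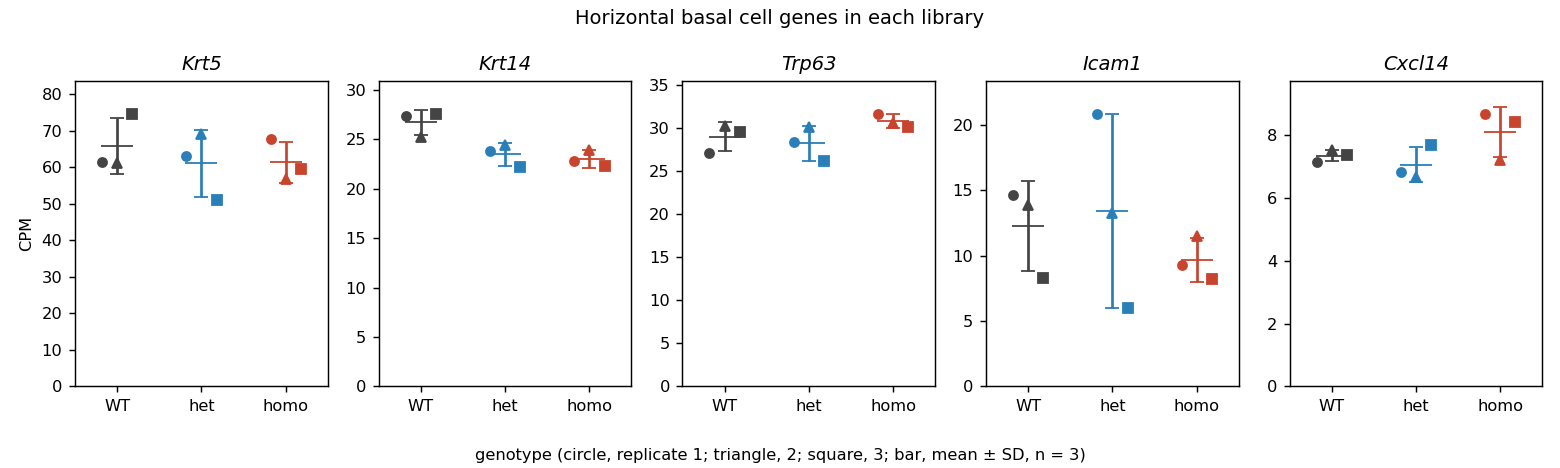
CPM of each horizontal basal cell gene in every library (y axis, from 0, with its own scale for each gene) by genotype (x axis: WT, wild type; het, heterozygous; homo, homozygous), with the mean and SD of 3 mice. Krt14 sits lower in all 6 mutant libraries than in the 3 wild type libraries, Icam1 is spread widest, and the square of the heterozygous group, mouse 3, is the lowest point for Krt5, Krt14, Trp63 and Icam1.

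Krt5, the type II keratin, was read at 61.5, 61.1 and 74.7 CPM in the 3 wild type mice, at 63.0, 69.2 and 51.1 CPM in the heterozygous mice and at 67.7, 56.8 and 59.5 CPM in the homozygous mice. The ranges of the 3 genotypes overlapped, and the lowest and highest of the 9 values were those of heterozygous mouse 3 and wild type mouse 3. Means were 65.8 ± 7.71 (SD, n = 3), 61.1 ± 9.18 and 61.3 ± 5.66 CPM. The log2 fold change was -0.10 ± 0.10 (SE) in homozygous against wild type mice, -0.11 ± 0.10 in heterozygous against wild type mice and 0.01 ± 0.10 in homozygous against heterozygous mice. For homozygous against wild type mice the 95% interval ran from a fold of 0.806 to 1.08. The sign of this small difference rested on wild type mouse 3, without which the log2 fold change was 0.01.

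Krt14, the type I partner of Krt5, was read at 27.3, 25.3 and 27.6 CPM in wild type, at 23.8, 24.4 and 22.2 CPM in heterozygous and at 22.8, 23.9 and 22.2 CPM in homozygous mice. Every mutant library lay below every wild type library, and the 2 mutant genotypes overlapped. Means were 26.7 ± 1.26, 23.5 ± 1.15 and 23.0 ± 0.863 CPM (SD, n = 3). The fold was 0.861 in homozygous against wild type mice (95% interval 0.777 to 0.954), with a log2 fold change of -0.22 ± 0.07 (SE), an unadjusted p = 0.0072 and an adjusted p = 0.39 by edgeR. In heterozygous against wild type mice the fold was 0.879 (0.794 to 0.974), with an unadjusted p = 0.017 and an adjusted p = 1.00. Homozygous and heterozygous mice differed by -0.03 ± 0.07 on the log2 scale (adjusted p = 0.92). Libraries that do not overlap are common in groups of 3. Krt14 was the 1 of 5 genes without overlap between homozygous and wild type mice, a state shared by 15.4% of all genes tested, and between heterozygous and wild type mice, shared by 8.68%. In homozygous against heterozygous mice 0 of 5 genes lacked overlap, against 14.1% of all genes. The summed level of 4 smooth muscle and myoepithelial markers, cells that also use Krt14, was 525 to 545 CPM in wild type, 526 to 588 in heterozygous and 449.9 to 533 CPM in homozygous libraries, and its part in the Krt14 values was not tested. Among the respiratory epithelium markers, Muc5ac had a fold of 0.595 in homozygous (unadjusted p = 0.0093, adjusted p = 0.41 by edgeR) and 0.565 in heterozygous mice against wild type (unadjusted p = 0.0050, adjusted p = 1.00). Ccdc153 had folds of 0.787 (adjusted p = 0.51) and 0.855 (adjusted p = 1.00). The others tested, Foxj1, Tekt1, Dynlrb2 and Muc5b, had folds of 0.949, 0.945, 0.964 and 0.968 in homozygous against wild type mice. In heterozygous against wild type mice their folds were 1.02, 0.948, 0.959 and 1.05. The sum of the 6 markers was 708 to 751 CPM in wild type, 657 to 807 in heterozygous and 645 to 711 CPM in homozygous libraries. Most of this sum was Muc5b, which ran from 349 to 513 CPM over the 9 libraries. The part of this epithelium was likewise not tested.

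Trp63, the regulator of the reserve state, was read at 27.1, 30.3 and 29.6 CPM in wild type, at 28.4, 30.2 and 26.2 CPM in heterozygous and at 31.7, 30.6 and 30.1 CPM in homozygous mice. The homozygous libraries were close together and at the upper end, and they overlapped both other genotypes. Means were 29.0 ± 1.67, 28.2 ± 2.0 and 30.8 ± 0.800 CPM (SD, n = 3). Of the 3 comparisons, that of homozygous with heterozygous mice gave the largest log2 fold change, 0.13 ± 0.07 (SE; 95% interval of the fold 0.987 to 1.21; adjusted p = 0.54). The comparison of homozygous with wild type mice gave 0.09 ± 0.07, with an interval of the fold from 0.959 to 1.17. Trp63 therefore had a higher and Krt14 a lower mean in homozygous than in wild type mice, and neither difference passed the test.

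Icam1, the adhesion molecule, was the most variable of the 5. It was read at 14.7, 13.9 and 8.31 CPM in wild type, at 20.9, 13.3 and 6.02 CPM in heterozygous and at 9.33, 11.5 and 8.20 CPM in homozygous mice. The highest and the lowest of the 9 values, 3.47-fold apart, came from mice of the same genotype, heterozygous mice 1 and 3, with 586 and 178 reads. Means were 12.3 ± 3.46, 13.4 ± 7.43 and 9.68 ± 1.68 CPM (SD, n = 3). The log2 fold change was -0.35 ± 0.31 (SE) in homozygous against wild type mice, with a 95% interval of the fold from 0.495 to 1.24. Homozygous against heterozygous mice gave -0.47 ± 0.31 (adjusted p = 0.64), and without heterozygous mouse 1 this became 0.01. Heterozygous against wild type mice gave 0.12 ± 0.30, and -0.36 without heterozygous mouse 1. The summed markers of endothelium were 110, 107 and 96.1 CPM in heterozygous mice 1, 2 and 3, the same order as Icam1. In homozygous mice 1, 2 and 3 the endothelial sum was 90.1, 86.3 and 94.0 CPM, the reverse of the order of Icam1. It was 102.35, 101.26 and 102.22 CPM in wild type mice. The summed markers of leukocytes were 95.1, 83.5 and 94.9 CPM in wild type mice and 101, 81.1 and 92.9 CPM in heterozygous mice. In both genotypes mouse 1 had the highest leukocyte sum and the highest Icam1, while mice 2 and 3 were ordered the opposite way. The leukocyte sum was 90.0, 82.8 and 87.6 CPM in homozygous mice, of which mouse 2 had the most Icam1. The part of these cells in the Icam1 values was not tested.

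Cxcl14, the chemokine, was read at 7.15, 7.51 and 7.35 CPM in wild type, at 6.80, 6.65 and 7.68 CPM in heterozygous and at 8.67, 7.19 and 8.39 CPM in homozygous mice. Homozygous mice 1 and 3 were above every other library, while homozygous mouse 2 lay within the wild type range. Means were 7.34 ± 0.184, 7.04 ± 0.553 and 8.08 ± 0.784 CPM (SD, n = 3). With 176 to 246 reads per library this was the least deeply counted of the 5 genes. The log2 fold change was 0.14 ± 0.11 (SE) in homozygous against wild type and 0.20 ± 0.11 in homozygous against heterozygous mice, where the 95% interval of the fold ran from 0.970 to 1.36 (adjusted p = 0.57).

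**Figure D2:**
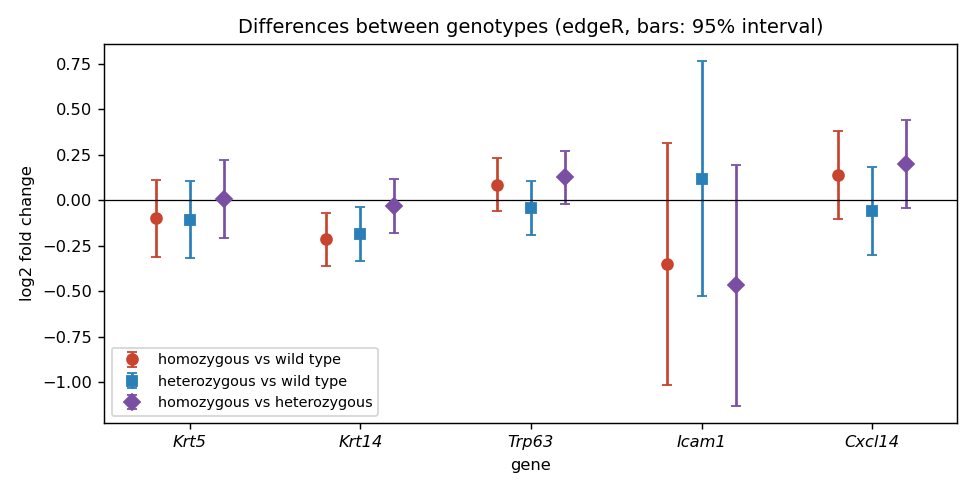
Log2 fold change (y axis) of each horizontal basal cell gene (x axis) in the 3 comparisons, with 95% intervals from edgeR. The intervals of Krt14 against wild type lie below 0 before adjustment for the 20213 genes tested, all others include 0, and those of Icam1 are the widest.

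Divided by the length of all exons, which allows levels of different genes to be set side by side, Krt5 was highest with a mean of 28.6 CPM per kilobase (23.3 to 34.0 over the 9 libraries), followed by Krt14 with 13.9 (12.6 to 15.7). These ranges did not overlap each other or any of the other 3 genes. Cxcl14 at 4.10 (3.64 to 4.74), Trp63 at 3.50 (3.12 to 3.78) and Icam1 at 2.70 CPM per kilobase (1.38 to 4.79) overlapped. Their order also depended on the length used. With the longest coding transcript in place of all exons, Trp63 stood at 5.47, Icam1 at 4.65 and Cxcl14 at 4.10 CPM per kilobase. The pairing keratins were thus unequal in level by this measure, with Krt5 above Krt14 in all 9 libraries.

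How far mice of the same genotype lay apart differed widely among the 5 genes. The SD of log2 CPM within genotypes was 0.07 for Krt14, 0.08 for Trp63, 0.11 for Cxcl14, 0.18 for Krt5 and 0.60 for Icam1. Among the 13815 genes with at least 100 reads on average, whose median SD was 0.08, 32.3% had a smaller spread than Krt14, 46.4% than Trp63, 66.9% than Cxcl14, 90.4% than Krt5 and 99.7% than Icam1. Trp63 and Krt14 were therefore near the middle of all genes, and Icam1 was among the most variable.

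**Figure D3:**
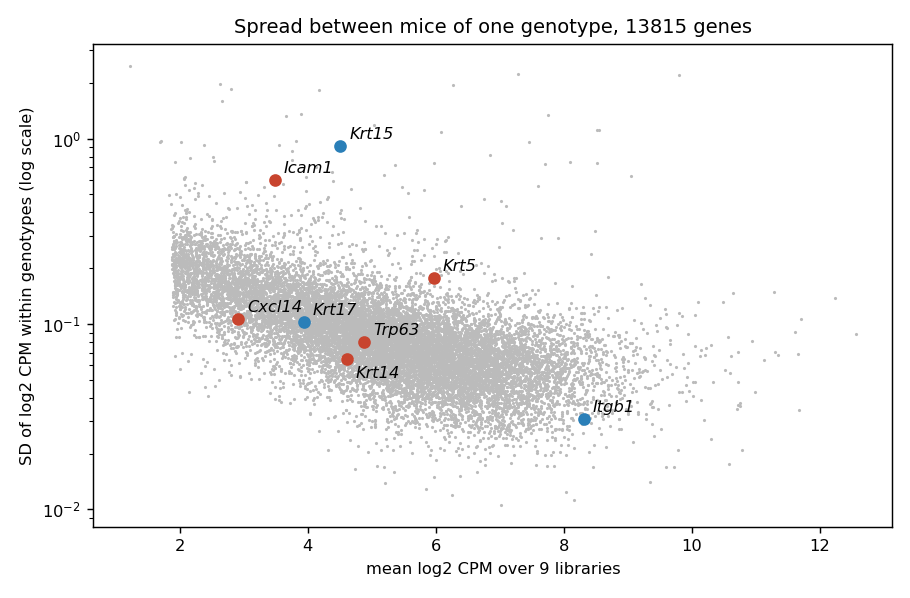
SD of log2 CPM within genotypes (y axis, log scale) against mean log2 CPM (x axis) for 13815 genes (grey), the 5 horizontal basal cell genes (red) and Krt15, Krt17 and Itgb1 (blue). Icam1 and Krt15 stand above nearly all genes of their level, while Krt14 and Trp63 lie within the main cloud.

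Heterozygous mouse 3 held the lowest value of Krt5, Krt14, Trp63 and Icam1, which is 4 of the 5 genes. Among the 13815 genes with at least 100 reads on average, 9.13% were lowest in that library. For Krt14 its value of 22.19 CPM was barely under the 22.24 CPM of homozygous mouse 3. The sum of the 5 genes was 113 CPM in heterozygous mouse 3 and 128.5 to 147.5 CPM in the other 8 libraries. Of 52 other basal cell genes at this depth, 9 (17.3%) were lowest there. Vomeronasal receptor reads in this library were 16 CPM, within the range of the wild type libraries, and its markers of sustentacular cells summed to 3078 CPM against 2791 to 3104 CPM over all libraries. Of the 6 respiratory epithelium markers, 5 were also lowest in this library. They were Foxj1, the regulator of motile cilia, at 130.5 CPM, the cilia genes Tekt1, Ccdc153 and Dynlrb2 at 36.7, 39.1 and 26.6 CPM, and the mucin gene Muc5ac at 10.1 CPM. The respiratory epithelium has basal cells that use the same keratins and p63, and its part in these values was not tested.

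Over the 9 libraries, no pair of the 5 genes varied together past the threshold. Of the 10 pairs, 0 had an adjusted p under 0.05 by exact permutation test (two-sided, Benjamini-Hochberg over the 10 pairs). The highest correlation of log2 CPM was that of the keratins, Krt5 and Krt14, with Pearson r = 0.54 (exact permutation p = 0.14, adjusted p = 0.47) and Spearman rho = 0.57 (exact permutation p = 0.12, adjusted p = 0.48). Without the 2 libraries farthest from the median of Krt5 it was -0.06, so it rested on those libraries. The lowest was that of Icam1 and Cxcl14, with r = -0.62 (exact permutation p = 0.074, adjusted p = 0.47) and rho = -0.68 (exact permutation p = 0.050, adjusted p = 0.48), and r = -0.64 without the 2 libraries farthest from the median of Icam1. Icam1 was highest and Cxcl14 among the lowest in heterozygous mouse 1. The pairs at both ends changed when genotype means were removed. The highest r was then that of Krt5 and Trp63 (0.73) and the lowest that of Krt14 and Cxcl14 (-0.80). Krt5 and Krt14 then had r = 0.57, and Icam1 and Cxcl14 r = -0.62.

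The genes whose log2 CPM followed each of the 5 most closely were taken from 13814 candidates, so the highest of so many correlations over 9 libraries are large by selection, and they are given as a description. For Krt5 they were Cxcl17, a mucosal chemokine (r = 0.93), the membrane protein gene Tmem176b (0.91) and Tatdn3 (0.90). Col17a1, the transmembrane collagen of hemidesmosomes, stood at rank 6 (r = 0.89) and Bcam, a laminin receptor, at rank 13 (r = 0.88). Both belong to the list of basement membrane genes. Without heterozygous mouse 3 and wild type mouse 3, the libraries at the ends of the Krt5 range, they kept r = 0.76 and 0.67. Among the remaining genes of that list, r with Krt5 ran from -0.17 (Dst) to 0.56 (Itgb4). Col17a1 ran from 24.7 CPM in heterozygous mouse 3 to 32.0 CPM in heterozygous mouse 2, and Bcam from 44.9 CPM in heterozygous mouse 3 to 53.3 CPM in wild type mouse 3.

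For Icam1 the closest genes were Cd14, the co-receptor for bacterial lipopolysaccharide (r = 0.96), Slc6a14, an amino acid transporter (0.95), and Inip, a subunit of a single-stranded DNA binding complex (0.93). Cd14 was 15.8 CPM in heterozygous mouse 1 and 5.07 CPM in heterozygous mouse 3, its highest and lowest values as for Icam1. Slc6a14 was 51.4 and 16 CPM in the same libraries. Without those 2 libraries r was 0.93 for Cd14, 0.89 for Slc6a14 and 0.80 for Inip.

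**Figure D4:**
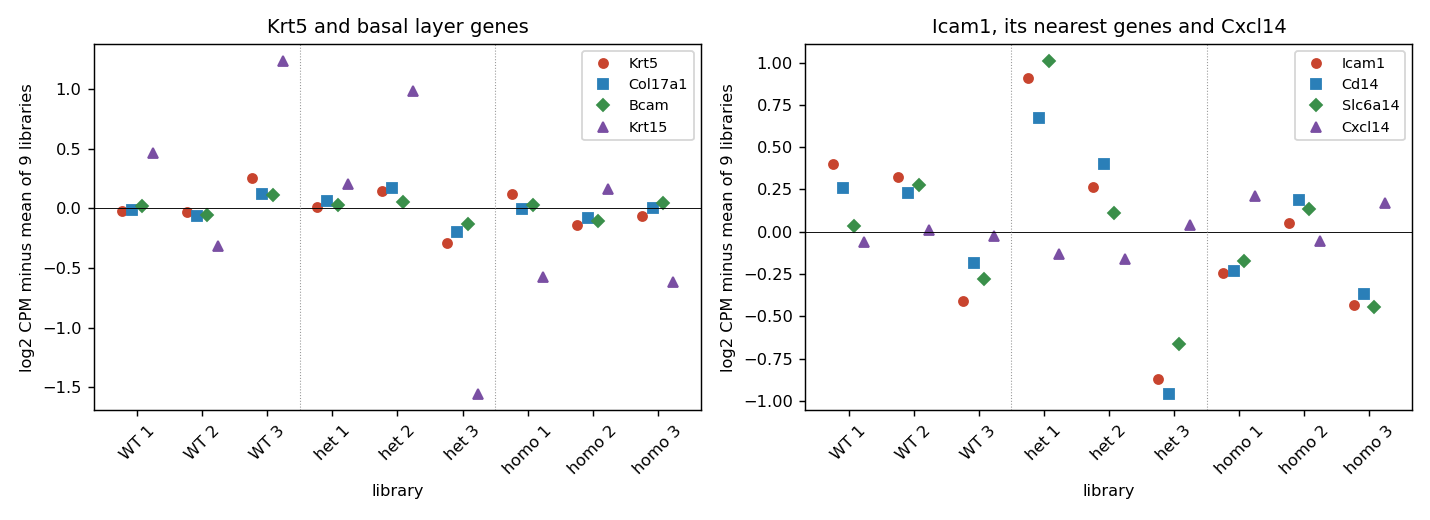
Log2 CPM minus the mean of 9 libraries (y axis) in each library (x axis) for Krt5, Col17a1, Bcam and Krt15 (left) and for Icam1, Cd14, Slc6a14 and Cxcl14 (right). Krt5, Col17a1 and Bcam are all lowest in heterozygous mouse 3, Krt15 varies over a wider range, and Icam1, Cd14 and Slc6a14 are all highest in heterozygous mouse 1 and lowest in heterozygous mouse 3.

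For Krt14 the closest were Phkb, a regulatory subunit of phosphorylase kinase (r = 0.94), Ccdc162 (0.94) and Atg4a, a protease of autophagy (0.92). Those of Trp63 were Ift57, of intraflagellar transport (0.95), Tmem107, of the ciliary transition zone (0.89), and Zfp712 (0.87), and the last fell to 0.33 without heterozygous mouse 3 and wild type mouse 1. Cxcl14 was followed by Ift43, of intraflagellar transport (0.97), the small GTPase gene Rab36 (0.97) and Iqsec2, a guanine nucleotide exchange factor (0.96). The candidates nearest to the 5 genes were thus 15 different genes. Among the other basal cell genes at this depth, r with Cxcl14 ran from -0.88 (Itga6) to 0.79 (Hes6).

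The other genes of the basal layer, 57 in 8 lists, did not pass the test either. By edgeR 0 of the 56 tested were called in each of the 3 comparisons, against the 0.0495%, 0.00495% and 0.114% of all genes given above. At an unadjusted p under 0.05 there were 5 in homozygous against wild type mice (1 higher and 4 lower), 4 in heterozygous against wild type mice (2 higher and 2 lower) and 7 in homozygous against heterozygous mice (2 higher and 5 lower). The shares of all genes at that level were 9.26%, 3.25% and 10.4%. The median log2 fold change of the 56 genes in homozygous against wild type mice was -0.05, against -0.00057 for all genes. Krt16 alone was not tested, having fewer than 10 reads over the 9 libraries.

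Genes of attachment to the basement membrane held the smallest p-value of the 56 in homozygous against wild type mice. Of 12, 11 had a negative log2 fold change in homozygous against wild type mice, with a median of -0.06, and 0 were called. Among all genes, 10149 of 20213 were negative in that comparison. In heterozygous against wild type mice 11 of the 12 were positive, with a median of 0.03. Itgb1, the shared beta subunit of the laminin and collagen receptors, was 321, 334 and 327 CPM in wild type, 338, 329 and 321 CPM in heterozygous and 292, 303 and 295 CPM in homozygous mice. Its homozygous libraries were below all 6 others, with a fold of 0.906 against wild type (unadjusted p = 0.0036, adjusted p = 0.34 by edgeR) and 0.900 against heterozygous mice (adjusted p = 0.22). Itga6, the alpha subunit that pairs with Itgb4 in hemidesmosomes, had a fold of 0.906 against wild type (adjusted p = 0.53). Dst, the hemidesmosome linker with the most reads in the list, ran from 305 to 382 CPM over the 9 libraries. Integrin Itgb1 is used by many cell types. The summed markers of endothelium were 101 to 102 CPM in wild type, 96.1 to 110 in heterozygous and 86.3 to 94.0 CPM in homozygous libraries. Among homozygous mice this sum was lowest in mouse 2, where Itgb1 was highest. The summed markers of fibroblasts were 11468 to 13193 CPM in wild type and 11231 to 12266 CPM in homozygous libraries, a sum made up mostly of the collagen genes Col1a1 and Col1a2. The fibroblast markers Dcn, with a fold of 0.903 (unadjusted p = 0.0050, adjusted p = 0.36 by edgeR), Pdgfra (0.909, adjusted p = 0.49) and Col3a1 (0.919, adjusted p = 0.48) were lower in every homozygous than in every wild type library. The other fibroblast markers, Col1a2 (fold 0.957), Lum (0.989) and Col1a1 (1.01), overlapped between these genotypes. Among all genes tested, 15.4% did not overlap in this comparison. The part of either cell type in the integrin values was not tested.

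Among desmosome genes 0 of 9 were called in any comparison. Dsc2, a desmosomal cadherin, had a fold of 0.892 in homozygous against wild type mice (adjusted p = 0.52), and Dsp, which links desmosomes to keratin filaments, 0.946 (adjusted p = 0.76). Jup, the plaque protein with the most reads in the list, ran from 199 to 241 CPM over the 9 libraries.

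Among Notch genes, the pathway that helps keep horizontal basal cells in place, 0 of 9 were called. Hes1, a transcription factor induced by Notch, was 30.2, 28.5 and 29.7 CPM in wild type and 32.1, 34.3 and 34.2 CPM in homozygous mice, and these libraries did not overlap. Its fold of 1.14 had an unadjusted p = 0.0076 and an adjusted p = 0.40. Hes1 is also made by sustentacular cells, whose summed markers were 2959 to 3104 CPM in wild type and 2801 to 3011 CPM in homozygous libraries. The receptor Notch2 had a fold of 0.948 (adjusted p = 0.63), and the ligand Jag2 ran from 149 to 171 CPM over the 9 libraries.

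Of the EGF receptor family and its ligands, which drive the growth of basal cells, 0 of 8 were called. Erbb3, a receptor of the family that is also strong in glia, had a fold of 0.892 in homozygous against wild type mice (adjusted p = 0.34) and 0.879 against heterozygous mice (adjusted p = 0.19). It was 82.2, 87.6 and 82.9 CPM in wild type and 77.4, 72.9 and 75.1 CPM in homozygous mice. The ligand Btc had a fold of 0.820 against wild type (adjusted p = 0.59). Egfr itself ran from 24.1 to 28.4 CPM over the 9 libraries.

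Of the transcription factors that basal cells share with other cells of the olfactory epithelium, 0 of 7 were called, and their log2 fold changes in homozygous against wild type mice ran from -0.02 to 0.08. Hes6, of the neuronal progenitors, and Sox2, of basal and sustentacular cells, had log2 fold changes of 0.08 ± 0.06 and 0.05 ± 0.05 (SE). Sox9, which is also used by glands, ran from 21.7 to 33.6 CPM over the 9 libraries, and its SD within genotypes was larger than that of 91.2% of genes. In heterozygous against wild type mice its fold was 1.21 (unadjusted p = 0.024, adjusted p = 1.00 by edgeR).

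The basal keratin Krt15 and genes switched on when basal cells are activated, such as Krt6a and Sprr1a, varied widely between mice of a genotype. Krt15 was 31.4, 18.3 and 53.7 CPM in wild type, 26.1, 44.9 and 7.68 CPM in heterozygous and 15.2, 25.4 and 14.8 CPM in homozygous mice, a 6.99-fold range. Its fold in homozygous against wild type mice was 0.538 (unadjusted p = 0.063, adjusted p = 0.57 by edgeR). Krt6a was 2.97, 0.0916 and 4.72 CPM in wild type and 1.27, 0.691 and 0.851 CPM in homozygous mice (adjusted p = 0.62). Krt17, the other basal keratin listed, was far steadier and ran from 12.5 to 16.7 CPM. Ecm1 had a log2 fold change of -0.11 ± 0.07 (SE), and Sprr1a was highest in heterozygous mouse 1 at 16.3 CPM, against 2.76 to 8.37 CPM elsewhere. Of the 5 activation genes tested, 0 were called in any comparison.

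Some markers of keratinised squamous epithelium were present in these tissue samples. Summed over the 8 tested they came to 37.4 to 45.1 CPM in wild type, 39.4 to 41.3 in heterozygous and 39.1 to 40.9 CPM in homozygous libraries. Most of this sum was Krt10 and Sbsn, with means of 16.4 and 15.5 CPM over the 9 libraries. The sum therefore mainly follows these genes, and it also includes Krt4. Of the defining markers, Lor ran from 2.29 to 3.41 CPM and Ivl from 0.428 to 0.883 CPM. Krt4, of non-keratinised stratified epithelium, was 3.77, 1.56 and 6.15 CPM in wild type, 1.71, 3.86 and 0.541 CPM in heterozygous and 1.62, 2.19 and 1.51 CPM in homozygous mice. Krt4 was singled out after its values were seen: within each genotype the 3 mice stood in the same order for Krt4 as for Krt15. Other markers of the list did not keep that order, such as Krt13 at 0.926, 0.189 and 0.203 CPM in heterozygous mice or Lor at 3.41, 2.29 and 2.82 CPM in wild type mice. Krt1, a keratin of the upper layers with 39 to 70 reads in a library, was above all wild type libraries in the homozygous libraries. Its fold was 1.48 (unadjusted p = 0.012, adjusted p = 0.42 by edgeR). Krt4 had a fold of 0.470 (unadjusted p = 0.046, adjusted p = 0.53 by edgeR). That of Krt13, with 0 to 84 reads in a library, was 0.154 (unadjusted p = 0.028, adjusted p = 0.48 by edgeR). Both overlapped wild type. Of the 8 tested, 6 had a negative log2 fold change in this comparison. The part of this epithelium in the basal keratin values was not tested.

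Partners of ICAM-1 on leukocytes, the integrin subunits Itgal, Itgam and Itgb2, and the related ligand Icam2 had negative log2 fold changes in homozygous against wild type mice, 4 of 4, with a median of -0.11, and 0 were called. The sign of Itgb2 turned without homozygous mouse 2, to 0.0039. Itgal had a fold of 0.862 (adjusted p = 0.58) and Itgb2 of 0.900 (adjusted p = 0.82). Itgal was 12.3 CPM in heterozygous mouse 1 and 10.3 CPM in heterozygous mouse 3, the libraries with the highest and lowest Icam1. Icam2 was ordered the opposite way between these libraries. The highest Itgal, 14.3 CPM, was in wild type mouse 3, where Icam1 was 8.31 CPM. Over the 9 libraries Pearson r of Itgal with Icam1 was 0.34, and it was 0.02 without heterozygous mice 1 and 3.

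**Figure D5:**
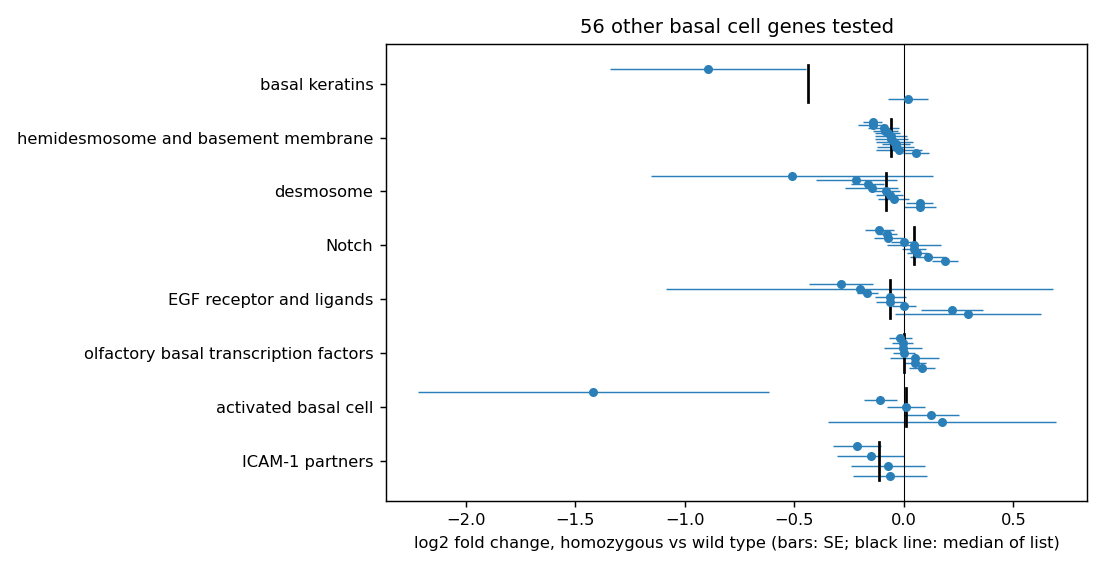
Log2 fold change in homozygous against wild type mice (x axis) of the 56 other basal cell genes tested, by list (y axis), with SE bars and the median of each list as a black line. None was called, most points lie near 0, and the far points on the left are Krt6a, Krt15 and Dsg3.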

How the data were processed

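RNA-seq of whole MOE from 9 mice, 3 per genotype, was analysed, with genotypes and mouse numbers taken from the sample titles. Per the labels, the submitters' processing notes list Trimmomatic 0.36, HISAT2 2.1.0, HTSeq 0.6.1p1 and DESeq2 1.20.0 and the builds GRCm38 and mm10. The methods of the study name featureCounts as the counter, while the table holds 5 rows of totals named as htseq-count names them, and neither the annotation nor the strand setting is given in the sources used here. The authors deposited raw counts per gene symbol. The rows of totals were left out. Of the reads in the table, 57.4 to 60.0% were counted in genes, 16.9 to 19.4% mapped to more than 1 place, 21.6 to 22.4% fell in no gene and 1.29 to 1.35% were ambiguous. A second deposited table, of normalized counts, was not used.

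Genes with at least 10 counts over the 9 libraries were tested by quasi-likelihood in edgeR 4.0.16 (R 4.3.3) after TMM scaling, with genotype alone in the model and Benjamini-Hochberg adjustment over all 20213 genes. SE and 95% intervals were derived from the F statistic. The script recovered changes in simulated counts. No 2 libraries of a genotype were alike within sampling noise, the closest pair having a chi-square of 4.34 per degree of freedom. Likeness and spread used log2 CPM with a prior count of 2 over genes with at least 100 counts on average. Gene models are from GENCODE M21. DESeq2 1.42.0 was an alternative.

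The members and gene lists were chosen with earlier results of these data known. Named are the 5 genes, the gene with the highest CPM and the 2 with the smallest p in homozygous against wild type mice from each of 8 lists of other basal cell genes, any listed gene called, and the 3 genes closest to each of the 5. Col17a1, Bcam, Egfr, Sprr1a, Sox9 and the named markers of squamous and respiratory epithelium and fibroblasts, and the library with the lowest values were singled out after their values were seen. Marker lists of other tissues were used as sums. Those not quoted beside a result were globose basal cells and olfactory sensory neurons. The globose basal cell sum was 501 to 551 CPM in wild type, 529 to 531 in heterozygous and 484 to 522 CPM in homozygous libraries. The neuron sum was 6255 to 6318, 6267.5 to 6744 and 6425 to 6952 CPM. It did not overlap between wild type and homozygous libraries, and 0 of its 6 genes were called there. Its part in the values of other lists was not tested.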

Additional observations from a re-analysis of the deposited data

How the results depend on the processing

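The counts of called genes were recomputed with other scaling, filters, tools and sets of libraries. None of the 5 horizontal basal cell genes was called in any comparison under any alternative with more than 1 mouse per genotype. Under every alternative 0 of the 10 pairs correlated. Of the other basal cell genes, 1 was called in homozygous against heterozygous mice by DESeq2 with default settings (Itgb1, adjusted p = 0.025) and 1 by DESeq2 without independent filtering (Itgb1, adjusted p = 0.029), and leaving out 1 mouse at a time gave 0 to 1, the 1 being Itga6 without heterozygous mouse 3 (adjusted p = 0.038). The cause was not tested. Over all genes, edgeR called 10, 1 and 23 in homozygous against wild type, heterozygous against wild type and homozygous against heterozygous mice, and DESeq2 70, 3 and 133. With only the 6 libraries compared the counts were 47, 0 and 11, and without heterozygous mouse 3 the first was 33.

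Of 270 recomputed log2 fold changes of the 5 genes, 258 kept their sign and 12 turned. Leaving out 1 mouse at a time gave -0.18 to 0.0055 for Krt5 in homozygous against wild type, -0.20 to 0.0054 in heterozygous against wild type and -0.10 to 0.11 in homozygous against heterozygous mice. It gave -0.064 to 0.00015 for Krt14 and -0.82 to 0.0095 for Icam1 in homozygous against heterozygous mice, and -0.092 to 0.0070 for Trp63 and -0.36 to 0.47 for Icam1 in heterozygous against wild type mice. In homozygous against wild type mice it gave -0.020 to 0.048 for Krt17 and -0.34 to 0.0039 for Itgb2. The following alternatives were chosen after seeing the data. Without the 3 libraries with many vomeronasal reads, which leaves 1 homozygous mouse that is assumed to vary like the others, Krt5 was 0.042, Krt17 -0.034 and Itgb2 0.15 in homozygous against wild type and Icam1 -0.36 in heterozygous against wild type mice. With vomeronasal expression as a covariate, Krt17 was -0.10 and Icam1 -0.16 in the same comparisons. DESeq2 without independent filtering turned none of these signs.

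Mice with the same number did not deviate together throughout, with correlations from -0.24 to 0.45, so the numbers were not taken as pairs. With a replicate block 0 of the 5 genes were called in any comparison, Krt14 stayed at -0.22 (adjusted p = 0.38) in homozygous against wild type mice, and over all genes 12, 0 and 41 were called. Cxcl14 and Icam1 had the lowest counts of the 5 genes, with as few as 176 and 178 reads in a library. Their SD of log2 CPM within genotypes was 0.11 and 0.60.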
